A study of Homo sapiens with 12 samples.

Results

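The replication-dependent histone genes were examined in 12 RNA sequencing libraries of 2 human acute myeloid leukemia (AML) cell lines treated with duocarmycin SA (DSA), a natural product that binds the minor groove of DNA and alkylates adenines there. Members were the protein-coding genes with the current symbols H1-1 to H1-6 or with symbols that begin with H2AC, H2BC, H3C or H4C and a number. There were 70 such genes among the 60754 genes in the files. They comprised 6 H1, 17 H2A, 19 H2B, 13 H3 and 15 H4 genes, of which 55 lie on chromosome 6, 13 on chromosome 1, 1 on chromosome 12 and 1 on chromosome 21. Molm-14 cells, kept in RPMI medium with 10% serum, received no DSA or 11.1 pM or 100 pM DSA for 36 h. HL-60 cells, kept in IMDM medium with 20% serum, received no DSA or 112.7 pM or 500 pM DSA for 36 h. Each of the 6 groups had 2 libraries. The labels call the controls untreated, whereas the study's methods describe vehicle. Each line is an established culture derived from 1 patient, the doses differed between the lines, and nothing states that the 2 libraries of a group came from separate cultures, so a p-value covers no more than the spread between such libraries, which may be technical. Because the RNA came from bulk cultures, fewer cells making histone mRNA and less histone mRNA per cell cannot be told apart.

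Histones package DNA into nucleosomes. An octamer of H2A, H2B, H3 and H4 forms the core, and H1, the linker histone, binds where the DNA enters and leaves it. The replication-dependent genes are clustered, mostly without introns, and are transcribed in S phase when new DNA must be packaged. Their mRNAs are the main animal mRNAs that usually lack a poly(A) tail. They end instead after a short stem-loop that is bound by SLBP, the stem-loop binding protein, and that guides cleavage of the transcript and its decay when DNA synthesis stops. Some of these genes also make polyadenylated mRNA by reading past the stem-loop to a downstream poly(A) signal, which has been described in differentiated and non-dividing cells.

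The stem-loop sequence is shown because it sets these genes apart from nearly all others. The stem-loop pattern, read as GGC, any base, CTTTT, any base, AG, any base and GCC, was searched on the transcribed strand within 150 bases after the stop codon in hg38. It was found in 65 of the 70 members (92.9%), against 3 of 19854 other protein-coding genes with a stop codon (0.0151%), namely H2AX, H3-4 and H3-7. The form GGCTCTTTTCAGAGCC was found in 40 members and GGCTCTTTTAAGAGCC in 9, including H2BC4, H2BC5, H2BC11 and H2BC12. The H4 genes carried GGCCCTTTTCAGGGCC in 10 cases and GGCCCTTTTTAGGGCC in 4. The following 26-base stretches, with the stem-loop in capitals, belong to members on which the results below turn. H2AC6 lies at chr6:26124664-26124689, plus strand, H2AC11 at chr6:27133510-27133535, plus strand, H2BC12 at chr6:27146361-27146386, minus strand, H2BC21 at chr1:149886183-149886208, minus strand, H3C14 at chr1:149840687-149840712, minus strand, and H4C14 at chr1:149833027-149833052, plus strand.
H2AC6: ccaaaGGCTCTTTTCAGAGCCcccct
H2AC11: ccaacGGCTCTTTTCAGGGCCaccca
H2BC12: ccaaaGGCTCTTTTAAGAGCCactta
H2BC21: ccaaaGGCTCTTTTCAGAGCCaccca
H3C14: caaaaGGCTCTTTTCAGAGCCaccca
H4C14: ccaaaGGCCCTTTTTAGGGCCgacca
H2AC6, H2BC21 and H3C14 share 1 stem-loop, while that of H2AC11 was found in no other member.

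Members gave a very small share of the reads. Library totals ran between 21177424 and 63927449 expected counts, and the members together accounted for 36.4 to 173 CPM (the standard scaling of counts to a common library total). HL-60 totals were 40518695 and 63927449 in controls, 21632970 and 31315658 at 112.7 pM, and 21177424 and 32012199 at 500 pM. Every treated HL-60 library was thus smaller than both of its controls, which limits members with few counts. Of the 70 members, 46 passed the filter on low counts and were tested among 13424 genes. The other 24 had at most 17 counts in any library, and H2AC1, H2BC1 and H4C7 were at 0 in all 12. The sources used here do not say whether poly(A) RNA was selected before sequencing, and the levels refer to the histone RNA that entered these libraries. Of 2 lists of markers of the lines, HOXA9, HOXA10, MEIS1 and FLT3, listed for Molm-14, summed to 12.1 to 19.9 CPM in HL-60 libraries and 565 to 665 CPM in Molm-14 libraries. MPO, ELANE, PRTN3 and AZU1, listed for HL-60, summed to 6520 to 18500 CPM in HL-60 libraries and 3060 to 3680 CPM in Molm-14 libraries. Of these, MPO and PRTN3 were higher in HL-60 controls, but ELANE was 400 and 428 CPM in HL-60 controls against 859 and 884 CPM in Molm-14 controls, and AZU1 202 and 217 CPM against 1500 and 1610 CPM. The mitochondrial share of counts was 2.72% and 4.10% in Molm-14 cells at 100 pM, against 1.47% and 1.68% in Molm-14 controls. It was 4.64% and 5.46% in HL-60 cells at 500 pM, against 2.22% and 2.47% in HL-60 controls. Its part in the results was not tested.

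The summed histone mRNA level lay above that of the controls at the higher dose in both lines. Levels are given from here on as CPM after TMM scaling, a correction of library size for differences in composition. The members summed to 73.0 and 68.8 CPM in Molm-14 cells at 100 pM, against 44.7 and 42.0 CPM in Molm-14 controls. They summed to 160 and 170 CPM in HL-60 cells at 500 pM, against 93.7 and 91.4 CPM in HL-60 controls. At the lower doses the sums were 39.6 and 39.3 CPM in Molm-14 cells at 11.1 pM and 145 and 138 CPM in HL-60 cells at 112.7 pM. The groups therefore did not overlap at 112.7 pM, while Molm-14 cells at 11.1 pM lay just below their controls.

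The classes did not move alike. In Molm-14 cells at 100 pM compared to controls, the summed H2A genes rose by 1.04 ± 0.0671 on the log2 scale (± SE throughout, adjusted p = 4.05e-10), and the H2B genes by 0.85 ± 0.0916 (adjusted p = 4.4e-07). H4 rose by 0.37 ± 0.0971 (adjusted p = 0.00395). The change was 0.24 ± 0.145 for H1 (adjusted p = 0.189) and 0.04 ± 0.137 for H3 (adjusted p = 0.857), and neither passed the test. In TPM, an abundance corrected for transcript length, the H4 sum in Molm-14 cells overlapped, at 24.3 and 21.9 at 100 pM against 20.4 and 22.7 in controls. The H2A and H2B sums were higher in TPM without overlap. All 5 class sums rose in HL-60 cells at 500 pM. The order of the classes was another one there, with 1.59 ± 0.102 for H3 (adjusted p = 6.2e-11), 1.13 ± 0.0722 for H4 (adjusted p = 5.74e-11), 0.71 ± 0.0731 for H2B, 0.60 ± 0.0577 for H2A and 0.54 ± 0.114 for H1. The H4 change in Molm-14 cells was 0.27 (adjusted p = 0.0812) when replicate 1 of the 100 pM group was left out.

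**Figure D1:**
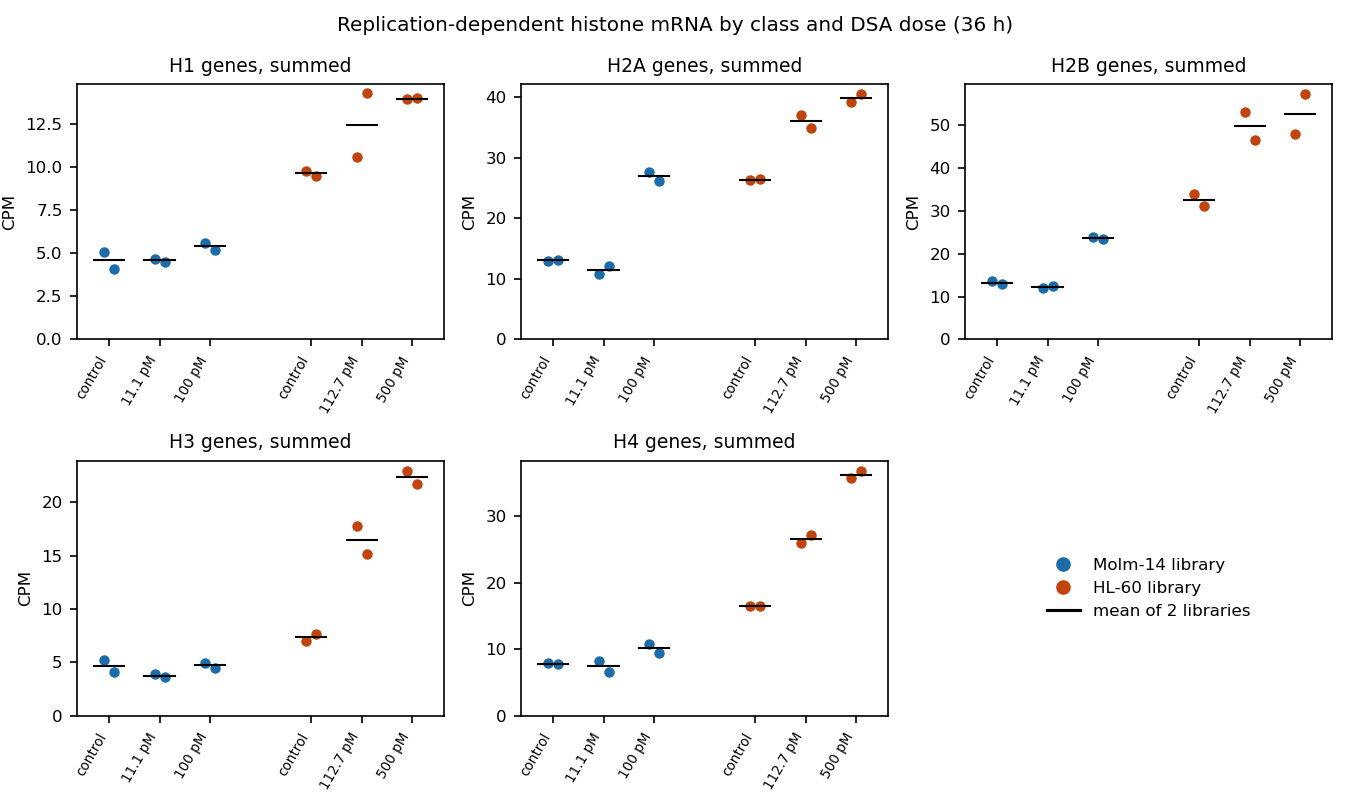
Summed CPM of the members of each histone class, with the DSA dose on the horizontal axis, Molm-14 libraries in blue and HL-60 libraries in orange; points are libraries and bars are means of 2. The H2A sum reached 27.7 and 26.2 CPM in Molm-14 cells at 100 pM against 13 and 13.2 CPM in controls, whereas the H3 sum was 4.98 and 4.47 CPM against 5.19 and 4.10 CPM. In HL-60 cells the H3 sum was 22.9 and 21.8 CPM at 500 pM against 6.98 and 7.69 CPM in controls.

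Of the 46 members tested, 11 were called higher and 2 lower in Molm-14 cells at 100 pM (edgeR quasi-likelihood test, Benjamini-Hochberg adjusted p under 0.05). Among all genes tested, 22.9% were called higher and 21.9% lower, so the share of members called higher (23.9%) was near the background and the share called lower (4.35%) was below it. The median log2 fold change was 0.24 over the members and 0.00 over all genes. In HL-60 cells at 500 pM, 25 members (54.3%) were called higher and 0 lower, against 35.7% and 37.8% of all genes, and 26 of the 46 members had an unadjusted p under 0.05. DESeq2 and limma-voom also called 0 members lower there. Without HL-60 control replicate 2, 16 members were higher and 1 was lower. The median was 0.68 over the members and 0.00 over all genes. With library totals alone as the scaling, the median of all genes moved to 0.18 and all genes were called higher in 6302 and lower in 3377 cases, against 4799 and 5074 with TMM, and 27 members were called higher. All 11 members called higher in Molm-14 cells were among the 25 called higher in HL-60 cells, which is 100% of the 11 and 44% of the 25. Both counts include H2AC19, whose own value is not read because its reads are shared with H2AC18, and without that pair 10 and 24 members were higher. How far the calls of all genes overlapped between the lines was not counted, so this overlap is not read as a result about the members. The 2 called lower in Molm-14 cells, H3C14 and H3C15, were called higher in HL-60 cells, and 0 members were lower in Molm-14 cells without either control or replicate 2 at 100 pM.

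Near-identical copies were also summed, since reads that match several copies can be divided among them in any proportion. Members with coding sequences at least 95% identical formed 6 groups of 2 or 3 genes, which left 63 units, 41 of them tested. H2AC18 and H2AC19 have the same coding sequence, and the deposited estimates put 175 and 317 counts on them in replicate 1 of the HL-60 controls and 0 and 822 counts in replicate 2. Only their sum is therefore read. H3C14 and H3C15 had equal values in every library and count as 1 measurement. With copies summed, Molm-14 cells at 100 pM had 11 higher units (26.8%) and 1 lower unit (2.44%), against 22.9% and 21.9% of all genes. The share of higher units was thus near that of all genes. HL-60 cells at 500 pM had 22 higher units (53.7%) and 0 lower units, against 35.7% and 37.8% of all genes. Fewer units were called there without HL-60 control replicate 2.

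**Figure D2:**
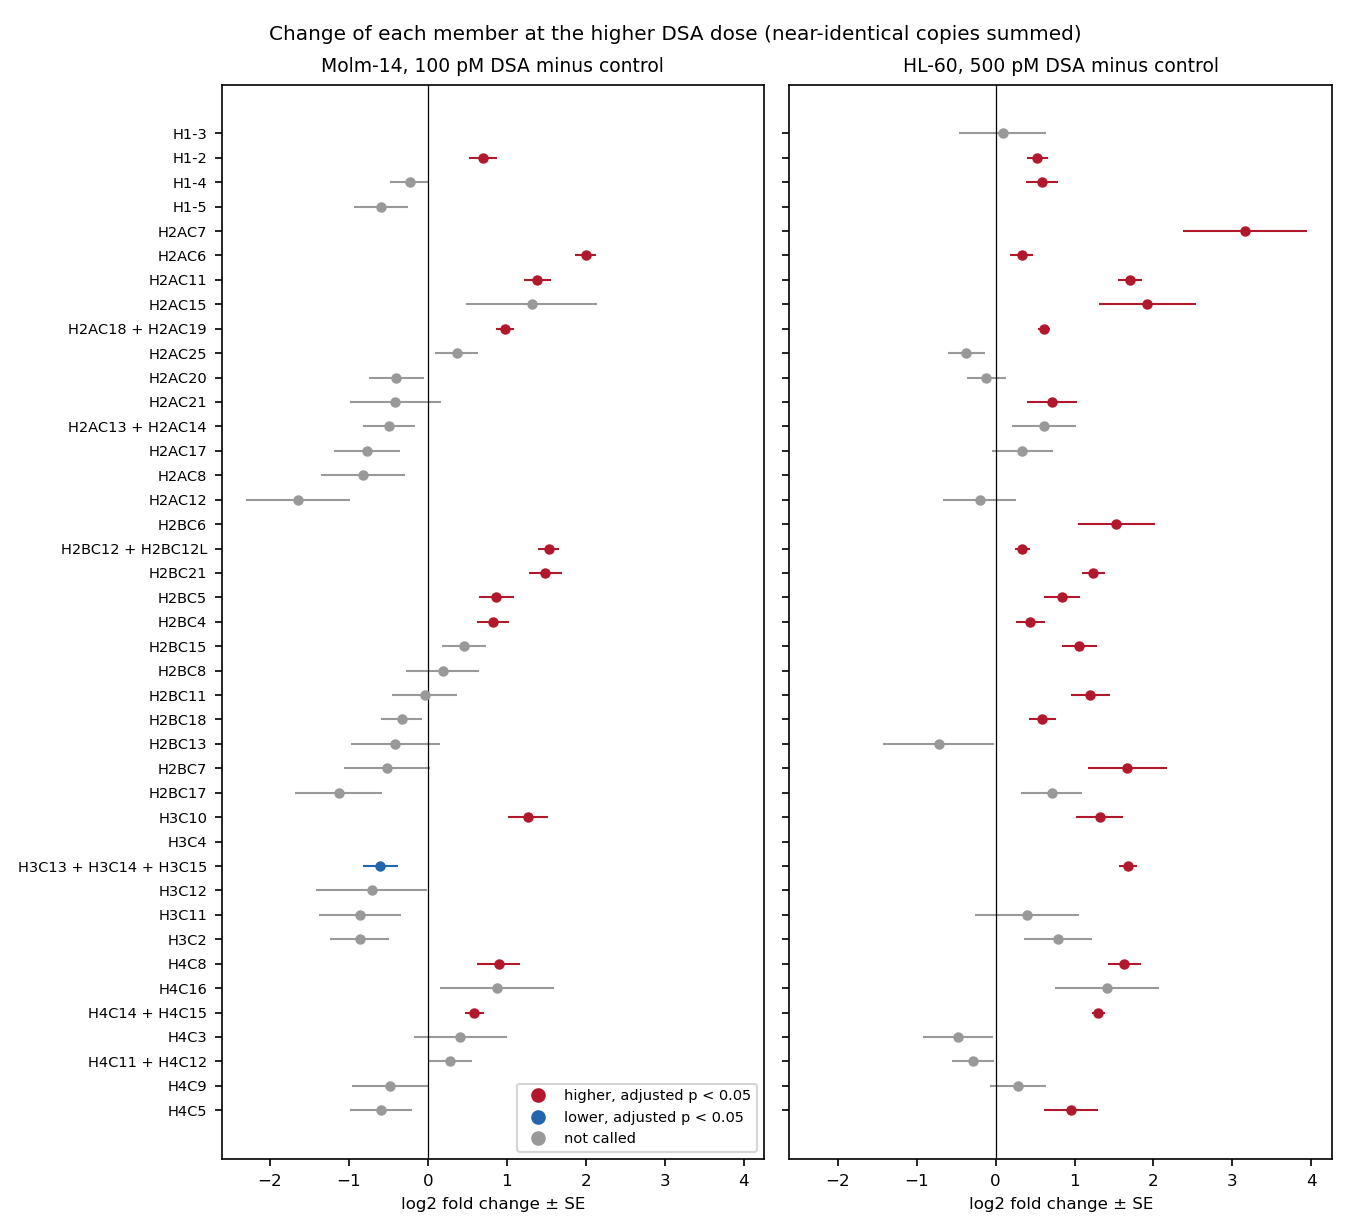
Log2 fold change ± SE of each tested member, with near-identical copies summed, grouped by class and ordered by the Molm-14 value; red points were called higher, blue lower and grey not called. The left panel is 100 pM minus control in Molm-14 cells (37 of 41 units drawn) and the right panel 500 pM minus control in HL-60 cells (36 of 41 units drawn); units with an SE of 1 or more are left out. The red points are fewer on the left, and the blue point is H3C13 + H3C14 + H3C15.

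Among the linker histones, H1-2 was the most abundant, with a mean of 14.0 TPM (a read-based abundance corrected for transcript length) over the 12 libraries. H1-2 had 3.77 and 3.37 CPM in Molm-14 cells at 100 pM, against 2.50 and 1.91 CPM in controls. It had 11.1 and 10.8 CPM in HL-60 cells at 500 pM, against 7.51 and 7.53 CPM in controls. The groups did not overlap in either line, and H1-2 rose by 0.70 ± 0.182 in Molm-14 cells (adjusted p = 0.00413) and 0.53 ± 0.131 in HL-60 cells (adjusted p = 0.00124). The Molm-14 change was 0.52 (adjusted p = 0.0749) without replicate 2 of the controls and 0.58 (adjusted p = 0.0519) with all libraries thinned to the smallest total. H1-4 had 2.57 and 3.01 CPM in HL-60 cells at 500 pM, against 2.04 and 1.75 CPM in controls, a rise of 0.59 ± 0.206 (adjusted p = 0.0159). Without replicate 2 of the controls it was 0.46 (adjusted p = 0.124), without replicate 2 of the 500 pM group 0.45 (adjusted p = 0.153), and by DESeq2 0.63 (adjusted p = 0.0634). In Molm-14 cells the H1-4 value was -0.23 ± 0.251 (adjusted p = 0.492). H1-5 had 24 and 19 counts in Molm-14 cells at 100 pM and 30 and 31 counts in controls, and its value of -0.59 ± 0.342 did not pass the test. It was at 0 counts in all 6 HL-60 libraries.

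Of the H2A genes, H2AC6 had the largest rise in Molm-14 cells among members and summed copies with at least 50 counts on average, H2AC19 alone left aside. H2AC6 had 11.2 and 10.6 CPM in Molm-14 cells at 100 pM, against 2.56 and 2.87 CPM in controls. At 11.1 pM Molm-14 cells had 2.12 and 2.68 CPM, near the controls. H2AC6 rose 4.01-fold at 100 pM (log2 2.0 ± 0.135, adjusted p = 9.09e-10). In HL-60 cells it had 4.07 and 4.36 CPM at 500 pM, against 3.27 and 3.44 CPM in controls. That rise of 0.33 ± 0.143 was small (adjusted p = 0.045), and it failed the test under 6 of the other settings and when any 1 of the 8 Molm-14 and HL-60 control and higher-dose libraries was left out (adjusted p between 0.0515 and 0.219 without 1 library). H2AC11 rose in both lines. It had 4.94 and 4.70 CPM in Molm-14 cells at 100 pM, against 1.98 and 1.71 CPM in controls, and 5.95 and 7.26 CPM in HL-60 cells at 500 pM, against 1.94 and 2.14 CPM in controls. Its log2 fold changes were 1.39 ± 0.167 (adjusted p = 1.71e-06) in Molm-14 cells and 1.70 ± 0.153 (adjusted p = 9.33e-09) in HL-60 cells.

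The most abundant H2A sequence was the identical pair H2AC18 and H2AC19, with a summed mean of 32.8 TPM. The pair had 7.02 and 6.76 CPM in Molm-14 cells at 100 pM, against 3.52 and 3.45 CPM in controls, and rose by 0.98 ± 0.113 (adjusted p = 9.27e-07). It had 19.6 and 21.7 CPM in HL-60 cells at 500 pM, against 13.2 and 13.9 CPM in controls, and rose by 0.61 ± 0.0778 (adjusted p = 9.21e-07). H2AC20, whose coding sequence is 94.1% identical to theirs, was called in neither line. It had 0.649 and 0.653 CPM in Molm-14 cells at 100 pM, against 0.684 and 1.0 CPM in controls, and 2.59 and 1.75 CPM in HL-60 cells at 500 pM, against 2.17 and 2.42 CPM in controls. The values overlapped in HL-60 cells, with log2 fold changes of -0.40 ± 0.347 in Molm-14 cells (adjusted p = 0.376) and -0.12 ± 0.247 in HL-60 cells (adjusted p = 0.67).

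H2BC12 was the most abundant member of all by TPM. Its mean was 56.2 TPM, 24.8% of the summed TPM of the members, although the transcript length used for it was 381 bases, the coding sequence alone, and a longer transcript would give a lower TPM. H2BC12 had 8.53 and 7.88 CPM in Molm-14 cells at 100 pM, against 3.04 and 2.65 CPM in controls, a 2.89-fold rise (log2 1.53 ± 0.127, adjusted p = 1.6e-08). In HL-60 cells it had 13.8 and 12.6 CPM in controls, 19.5 and 16.3 CPM at 112.7 pM and 16.8 and 16.5 CPM at 500 pM, so the 2 doses overlapped. Its rise at 500 pM was 0.34 ± 0.0909 (adjusted p = 0.00253). H2BC21 had 4.33 and 4.32 CPM in Molm-14 cells at 100 pM, against 1.59 and 1.49 CPM in controls, and rose by 1.49 ± 0.21 (adjusted p = 1.22e-05). It had 10.7 and 14.4 CPM in HL-60 cells at 500 pM, against 5.56 and 5.20 CPM in controls, and rose by 1.24 ± 0.148 (adjusted p = 4.11e-07). Both genes thus rose in both lines, with no overlap between treated and control libraries at the higher doses.

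H2BC4 and H2BC5 rose less. H2BC4 had 2.82 and 2.29 CPM in Molm-14 cells at 100 pM, against 1.26 and 1.61 CPM in controls (0.83 ± 0.204, adjusted p = 0.00279). H2BC5 had 2.88 and 3.28 CPM at 100 pM, against 2.09 and 1.29 CPM in controls (0.87 ± 0.219, adjusted p = 0.00315). H2BC4 had, in HL-60 cells at 500 pM, 3.42 and 2.95 CPM, against 2.47 and 2.22 CPM in controls (0.44 ± 0.183, adjusted p = 0.0396), and DESeq2 did not call it (adjusted p = 0.113). H2BC5 had 2.67 and 2.27 CPM in HL-60 cells at 500 pM, against 1.21 and 1.49 CPM in controls (0.84 ± 0.228, adjusted p = 0.00293). The groups did not overlap for either gene. H2BC4 overlaps HFE and H4C3 on the other strand and H1-6 on its own, and whether counting used strand is not stated. Leaving out 1 library ended the Molm-14 call of H2BC4 (0.66, adjusted p = 0.0503, without replicate 1 at 100 pM) and of H2BC5 (0.56, adjusted p = 0.0777, without control replicate 2), and the HL-60 call of H2BC4 in 3 cases (adjusted p = 0.0546 and 0.195 without control replicates 1 and 2, and 0.188 without replicate 1 at 500 pM).

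The leading H3 genes went opposite ways in Molm-14 cells and the same way in HL-60 cells. The 3 near-identical genes on chromosome 1, H3C13, H3C14 and H3C15, summed to 20.2 and 19.6 CPM in HL-60 cells at 500 pM, against 5.76 and 6.53 CPM in controls. That was a 3.20-fold rise (log2 1.68 ± 0.116, adjusted p = 1.76e-10), and the 112.7 pM libraries lay between, at 15.6 and 13.6 CPM. In Molm-14 cells the same sum was 1.5 and 0.874 CPM at 100 pM, against 1.83 and 1.85 CPM in controls, a decrease of -0.60 ± 0.221 (adjusted p = 0.0338). That decrease rested on 54 and 29 counts against 57 and 61. It was -0.28 (adjusted p = 0.374) without replicate 2 at 100 pM, -0.61 (adjusted p = 0.0988) without control replicate 1, -0.59 (adjusted p = 0.112) without control replicate 2, and -0.16 (adjusted p = 0.709) in thinned libraries. H3C10, on chromosome 6, rose in both lines. It had 2.30 and 2.53 CPM in Molm-14 cells at 100 pM, against 1.04 and 0.957 CPM in controls (1.27 ± 0.258, adjusted p = 0.000551), and 1.5 and 1.26 CPM in HL-60 cells at 500 pM, against 0.402 and 0.645 CPM in controls (1.32 ± 0.298, adjusted p = 0.000581).

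Among the H4 genes, the pair H4C14 and H4C15 was the most abundant, with a summed mean of 25.7 TPM. It had 6.26 and 5.63 CPM in Molm-14 cells at 100 pM, against 4.27 and 3.68 CPM in controls (0.59 ± 0.118, adjusted p = 0.000497). It had 27.5 and 28.7 CPM in HL-60 cells at 500 pM, against 11.6 and 11.4 CPM in controls (1.30 ± 0.0803, adjusted p = 3.81e-11). H4C8 had 3.6 and 3.56 CPM in HL-60 cells at 500 pM, against 1.26 and 1.07 CPM in controls (1.63 ± 0.211, adjusted p = 1.23e-06). In Molm-14 cells H4C8 had 1.33 and 1.15 CPM at 100 pM, against 0.632 and 0.688 CPM in controls (0.90 ± 0.274, adjusted p = 0.0116). In TPM, H4C8 overlapped there, at 2.08 and 1.40 against 1.12 and 2.35 in controls. The Molm-14 call was lost by DESeq2 (adjusted p = 0.0594), in thinned libraries (0.09), and without control replicate 1 (0.0687) or replicate 1 at 100 pM (0.0884). H4C11 had 1.33 and 1.35 CPM in Molm-14 cells at 100 pM, against 0.759 and 1.44 CPM in controls, and 1.08 and 1.5 CPM in HL-60 cells at 500 pM, against 1.58 and 1.65 CPM in controls. It was called in neither line.

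**Figure D3:**
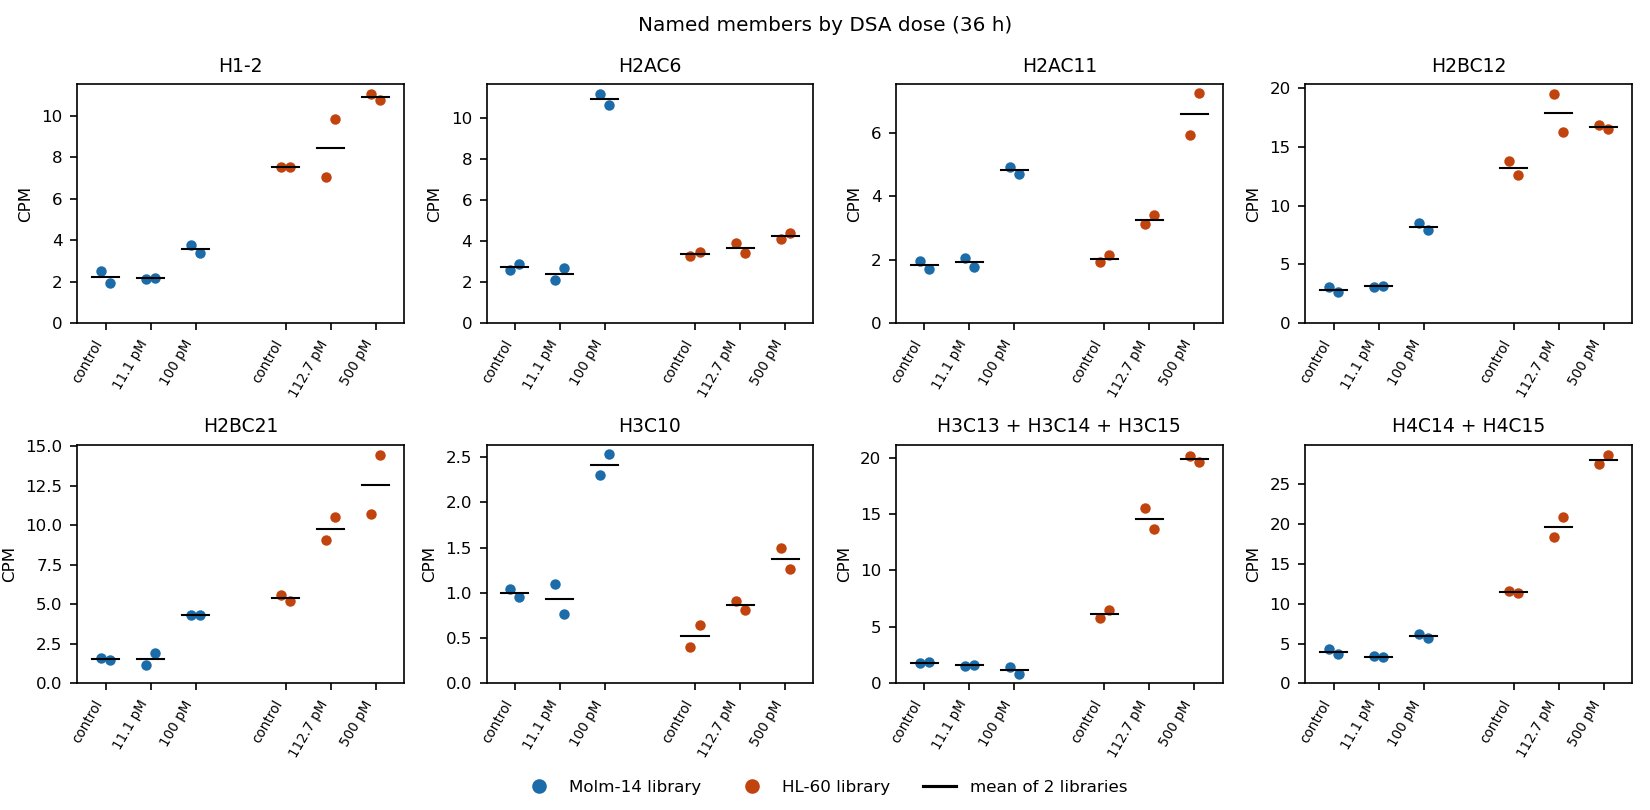
CPM of 8 members or summed copies, with the DSA dose on the horizontal axis, Molm-14 libraries in blue and HL-60 libraries in orange; points are libraries and bars are means of 2. H2AC6 stands out in Molm-14 cells at 100 pM (11.2 and 10.6 CPM, against 2.56 and 2.87 CPM in controls), and the H3C13 + H3C14 + H3C15 sum in HL-60 cells at 500 pM (20.2 and 19.6 CPM, against 5.76 and 6.53 CPM in controls).

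The lower doses, 11.1 pM in Molm-14 cells and 112.7 pM in HL-60 cells, were not the same, and medium and serum differed too. Line, dose and culture medium therefore cannot be told apart, and no difference between the lines was tested at these doses. In Molm-14 cells at 11.1 pM, 0 of the 46 members were called by edgeR, against 0.946% of all genes called higher and 0.223% called lower. Of the members, 3 had an unadjusted p under 0.05, and the median was -0.17 over the members and 0.00 over all genes. DESeq2 and limma-voom also called 0 members in either direction. In HL-60 cells at 112.7 pM, 16 members (34.8%) were called higher and 0 lower, against 24.2% and 27.4% of all genes, with 19 members at an unadjusted p under 0.05. DESeq2 and limma-voom called 0 lower as well. With library totals alone, 4232 of all genes were higher and 2697 lower, against 3253 and 3683 with TMM. All 5 class sums rose at 112.7 pM, by 1.15 ± 0.106 for H3 (adjusted p = 6.56e-08), 0.69 ± 0.0754 for H4 (adjusted p = 5.01e-07), 0.61 ± 0.0742 for H2B, 0.44 ± 0.0589 for H2A and 0.39 ± 0.116 for H1. One of the 16, H2AC8, had 3 and 2 counts at 112.7 pM and 0 in both controls, so no fold is given for it.

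Between the doses, Molm-14 cells at 100 pM had 15 higher members (32.6%) and 0 lower ones compared to 11.1 pM, against 19.6% and 18.5% of all genes, and 8 were higher without replicate 2 at 11.1 pM. In HL-60 cells at 500 pM compared to 112.7 pM, 9 members (19.6%) were higher and 1 (2.17%) was lower, against 25.8% and 26.8% of all genes. With library totals alone, 4828 of all genes were higher and 2107 lower, against 3469 and 3591 with TMM. The 9 included H2AC11 (1.01 ± 0.157, adjusted p = 2.78e-05), H4C8 (0.76 ± 0.212, adjusted p = 0.00535) and H4C14 (0.54 ± 0.129, adjusted p = 0.00184). The member that was lower, H1-3, had 7 and 6 counts at 500 pM and 11 and 26 counts at 112.7 pM.

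The difference between the lines was tested directly as the change at 500 pM in HL-60 cells minus the change at 100 pM in Molm-14 cells. It was higher for 10 members (21.7%) and lower for 3 (6.52%), against 25.1% and 30.3% of all genes. With library totals alone, 4535 of all genes were higher and 2640 lower, against 3372 and 4068 with TMM. The number of members that were higher rested on single libraries, at 4 without replicate 2 and 6 without replicate 1 at 100 pM, and 5 without Molm-14 control replicate 1, HL-60 control replicate 2 or replicate 2 at 500 pM. The H3 sum changed more in HL-60 cells by 1.55 ± 0.171 (adjusted p = 3.49e-07) and the H4 sum by 0.76 ± 0.122 (adjusted p = 3.02e-05), while the H2A sum changed less by -0.44 ± 0.0888 (adjusted p = 0.000301). Among members and sums with at least 50 counts on average, H2AC19 alone left aside, the largest differences on the Molm-14 side were H2AC6 at -1.67 ± 0.198 (adjusted p = 8.89e-07) and the sum of H2BC12 and its near-identical copy H2BC12L at -1.20 ± 0.162 (adjusted p = 4.31e-06). H2BC12 alone differed by -1.19 ± 0.158 (adjusted p = 3.72e-06). On the HL-60 side H3C14 and H3C15, with 2.53 each, led, and their sum with H3C13 differed by 2.28 ± 0.249 (adjusted p = 3.08e-07). For H2AC11 the difference was 0.30 ± 0.231 (adjusted p = 0.28) and for H2BC21 -0.24 ± 0.261 (adjusted p = 0.458), and neither passed the test. Because 100 pM and 500 pM are different doses and the media and serum differed too, line, dose and culture medium cannot be told apart in this contrast.

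The lines were also compared without DSA, where line, medium and serum cannot be told apart. Comparing HL-60 controls with Molm-14 controls, 21 members (45.7%) were higher and 8 (17.4%) lower, against 43.9% and 40% of all genes, so the share called higher was near the background. The most abundant sequences by TPM were the same in both lines. H2BC12 had 76.7 and 71.9 TPM in HL-60 controls, against 16.0 and 14.2 TPM in Molm-14 controls, and H2AC18 and H2AC19 summed to 39.4 and 41.1 TPM, against 10.1 and 9.85 TPM. In CPM, all 5 class sums were higher in HL-60 cells by 0.68 to 1.30 (log2). H2BC12 had 13.8 and 12.6 CPM in HL-60 controls, against 3.04 and 2.65 CPM in Molm-14 controls (2.21 ± 0.117, adjusted p = 1.24e-12). Some members with few counts were at 0 in 1 line. H1-5 was at 0 counts in both HL-60 controls, against 30 and 31 counts in Molm-14 controls. With 3 counts per library as the limit that a count of 0 allows, it was at least 14.3-fold lower in HL-60 cells. By the same limit H2AC8 was at least 5.82-fold lower (0 counts against 10 and 15) and H3C12 at least 4.80-fold lower (0 counts against 15 and 5), whereas H2BC6 was at least 2.23-fold higher (9 and 10 counts against 0). These limits cover counting error only. H3C10 was lower in HL-60 controls at -0.88 ± 0.303 (adjusted p = 0.0121), a call lost without Molm-14 control replicate 1 (adjusted p = 0.0588) or HL-60 control replicate 1 (adjusted p = 0.0912).

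Polyadenylated mRNA has been described for some members in non-dividing cells, and 6 of these were listed, H1-2, H2AC6, H2BC4, H2BC5, H2BC12 and H2BC21. The list may not be complete. All 6 were called higher in Molm-14 cells at 100 pM, with a median of 1.18, and 5 of the other 40 tested members (12.5%) were, with a median of -0.14, against 22.9% of all genes. The 6 summed to 33.5 and 31.8 CPM at 100 pM, against 13.1 and 11.8 CPM in Molm-14 controls. The other 64 members summed to 39.5 and 37.0 CPM, against 31.6 and 30.2 CPM. The 6 were again all called higher in HL-60 cells at 500 pM, with a median of 0.48, beside 19 of the other 40 (47.5%), with a median of 0.72, against 35.7% of all genes. The 6 summed to 48.7 and 51.3 CPM at 500 pM, against 33.8 and 32.5 CPM in HL-60 controls, and the other 64 to 111 and 119 CPM, against 59.8 and 58.9 CPM. In Molm-14 cells the rise thus lay mostly in the 6 genes, and in HL-60 cells mostly in the other 64. The 6 were listed with earlier results of these data known, and no test of the list was made.

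Members were also split by transcript length, at a limit chosen after the values were seen. The length in the files reached 1000 bases or more in any library, treated ones included, for 20 members and was shorter for 50. For members with several transcripts this length varied between libraries. H4C8, called higher in both lines, passed the limit only through replicate 2 of Molm-14 cells at 100 pM (1047 bases). In Molm-14 cells at 100 pM, 6 of the 16 long ones tested were higher and 2 lower, with a median of 0.67, beside 5 of the 30 short ones, with a median of 0.08, and against 22.9% of all genes higher and 21.9% lower. At 500 pM in HL-60 cells, 13 of the 16 long ones were higher, with a median of 1.28, beside 12 of the 30 short ones, with a median of 0.42, and against 35.7% of all genes, which is near the share of the short ones. H3C14 and H3C15, which count as 1 measurement, were the 2 lower ones in Molm-14 cells and were both among the 13 in HL-60 cells. The split was not repeated with copies summed. Length bears on the reads a model can collect, and its part in these counts was not tested. For 13 members with several transcripts, the files also give a length averaged over the estimated transcript shares. Treated libraries had a longer average than controls, with no overlap, for 7 members in Molm-14 cells at 100 pM and 5 in HL-60 cells at 500 pM, and 4 of them, H2BC5, H2BC11, H2BC18 and H4C8, in both. It was shorter for 0 members in Molm-14 cells and for 1 in HL-60 cells, H4C15, with 1090 and 1372 bases at 500 pM against 1417 and 1531 bases in controls. The others overlapped, and no test was made. The share of all genes with such a shift was not counted, so these counts are not read as a result about the members. Some averages rest on few reads, with a lowest count of 2 for H4C16, longer in Molm-14 cells, and 9 for H2BC11. For H2BC5 it was 654 and 678 bases in Molm-14 cells at 100 pM, against 557 and 596 bases in controls, and 710 and 687 bases in HL-60 cells at 500 pM, against 591 and 559 bases in controls, so the groups did not overlap in either line. For H2AC6 the average lengths were 1628 and 1648 bases in Molm-14 cells at 100 pM, against 1605 and 1643 bases in controls, and overlapped.

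Many H2A and H2B genes stand head to head and share 1 stretch of promoter DNA, so partners were set side by side. There were 12 such H2A and H2B pairs with 170 to 251 bases between the start sites, and both partners were tested in 9. In Molm-14 cells at 100 pM both partners were called higher only for H2AC6 (2.0 ± 0.135) and H2BC4 (0.83 ± 0.204). For the other pairs with a call, 1 partner was called. H2BC12 rose by 1.53 ± 0.127, and its partner H2AC12 had -1.64 ± 0.659 on 4 and 3 counts at 100 pM against 13 and 8 in controls. H2BC21 rose by 1.49 ± 0.21, and H2AC20 had -0.40 ± 0.347. H2AC11 rose by 1.39 ± 0.167, and H2BC11 had -0.04 ± 0.409. In HL-60 cells at 500 pM the pair of H2AC11 (1.70 ± 0.153) and H2BC11 (1.2 ± 0.25) rose together, as did H2AC15 (1.92 ± 0.613) with H2BC15 (1.06 ± 0.222), H2AC7 (3.16 ± 0.789) with H2BC7 (1.67 ± 0.505), and H2AC6 (0.33 ± 0.143) with H2BC4 (0.44 ± 0.183). Few counts lay behind H2AC15, with 6 and 14 at 500 pM against 5 and 4 in controls, and H2AC7, with 19 and 12 against 4 and 2. H2BC21 (1.24 ± 0.148) and H2BC12 (0.34 ± 0.0909) rose there with their partners not called. The difference between partners was not itself tested. Among all genes, 22.9% were called higher in Molm-14 cells at 100 pM and 35.7% in HL-60 cells at 500 pM. Joint calls of other neighbouring genes were not counted, so the joint calls are not read as a result about the pairs.

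**Figure D4:**
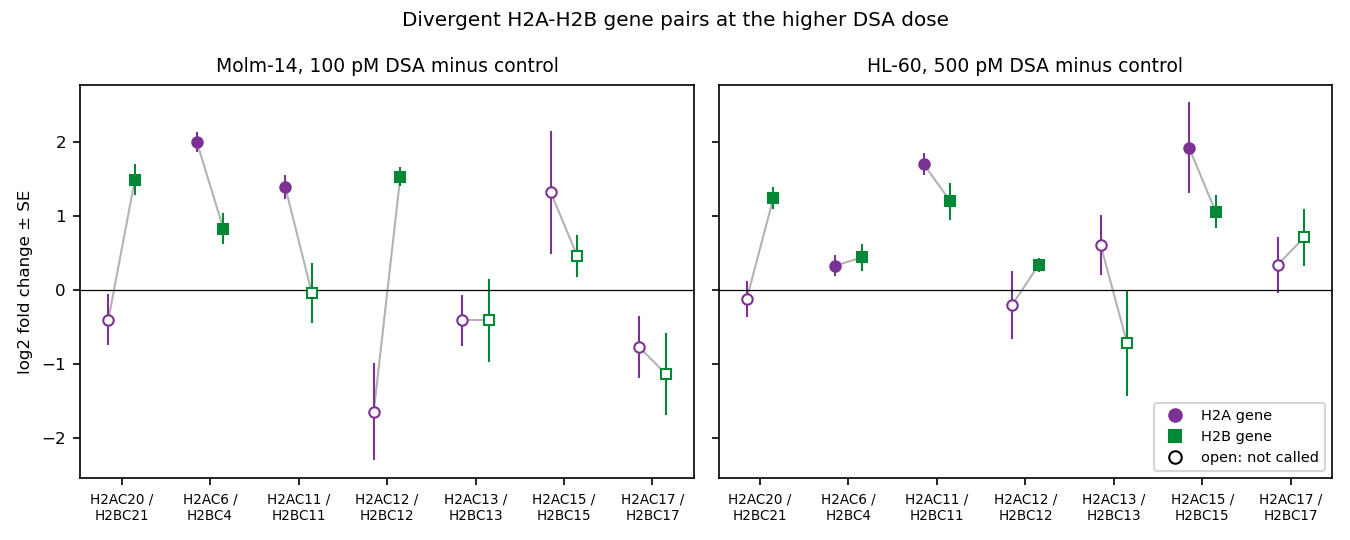
Log2 fold change ± SE of the H2A gene (purple circle) and the H2B gene (green square) of 7 divergent pairs, at 100 pM minus control in Molm-14 cells on the left and 500 pM minus control in HL-60 cells on the right; filled symbols were called and open ones were not. Pairs with an SE of 1 or more, H2AC7 with H2BC7 and H2AC8 with H2BC8, are left out. Of the pairs drawn, H2AC12 (-1.64, not called) and H2BC12 (1.53) lie farthest apart in Molm-14 cells, while H2AC7 (2.76 ± 1.16) and H2BC7 (-0.52 ± 0.547), not drawn and neither called, have a wider gap.

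Promoters of 3 such pairs are shown because in Molm-14 cells at 100 pM both partners were called higher in the first and 1 partner in each of the others. The sequences, from RefSeq (GRCh38.p14), run from 250 bases before to 50 bases after the start site and so cover most or all of the DNA between the partners. Capitals mark the TATA box (TATAAA), the CCAAT box (CCAAT) and the octamer (ATTTGCAT) on either strand. H2AC6, with H2BC4 upstream, is at chr6:26123922-26124221, plus strand; H2BC12, with H2AC12 upstream, at chr6:27146809-27147108, minus strand; and H2BC21, with H2AC20 upstream, at chr1:149886633-149886932, minus strand.
H2AC6 promoter: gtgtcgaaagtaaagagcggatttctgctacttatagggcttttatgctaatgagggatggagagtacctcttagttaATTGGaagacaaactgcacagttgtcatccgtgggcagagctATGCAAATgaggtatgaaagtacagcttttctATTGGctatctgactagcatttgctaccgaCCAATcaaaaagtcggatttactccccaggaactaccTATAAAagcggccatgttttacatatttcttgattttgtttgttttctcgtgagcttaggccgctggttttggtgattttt
H2BC12 promoter: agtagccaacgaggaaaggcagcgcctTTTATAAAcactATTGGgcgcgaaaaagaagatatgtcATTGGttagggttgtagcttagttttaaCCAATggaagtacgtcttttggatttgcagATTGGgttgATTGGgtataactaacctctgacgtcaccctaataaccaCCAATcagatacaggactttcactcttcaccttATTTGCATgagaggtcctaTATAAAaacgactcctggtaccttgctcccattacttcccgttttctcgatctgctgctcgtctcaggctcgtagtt
H2BC21 promoter: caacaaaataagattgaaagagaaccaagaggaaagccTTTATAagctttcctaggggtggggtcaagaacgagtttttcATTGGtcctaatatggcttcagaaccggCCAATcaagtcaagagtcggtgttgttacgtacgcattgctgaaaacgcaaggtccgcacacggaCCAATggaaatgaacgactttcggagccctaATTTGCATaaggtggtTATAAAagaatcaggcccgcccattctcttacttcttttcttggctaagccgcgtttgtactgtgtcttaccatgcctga
All 3 hold the octamer, which is bound by POU2F1, several CCAAT boxes and at least 1 TATA box. Among the 64 members with a promoter sequence, 40.6% held the octamer, against 1.8% of 27305 promoters of the same length. The octamer was found in 68.8% of H2A and 77.8% of H2B promoters and in no H1 or H4 promoter. The CCAAT box was found in 84.4% of member promoters, against 35.7% of all, and the TATA box in 65.6%, against 12%. A match to these letters is a description and not evidence of binding.

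Genes that make, process and remove histone mRNA were counted from lists. The counts are to be read against all genes, of which 22.9% were called higher and 21.9% lower in Molm-14 cells at 100 pM and 35.7% and 37.8% in HL-60 cells at 500 pM. Of 8 genes of histone gene transcription, 1 rose and 2 fell in Molm-14 cells at 100 pM, and 2 rose and 4 fell in HL-60 cells at 500 pM, which is near those shares. NPAT, the coactivator that links cyclin E and CDK2 to these genes, had -0.12 ± 0.0568 (adjusted p = 0.0909) in Molm-14 cells and fell by 0.15 (± 0.0561, adjusted p = 0.0188) in HL-60 cells. CCNE2, cyclin E2, had 10.3 and 12.4 CPM in HL-60 cells at 500 pM, against 5.74 and 5.09 CPM in controls, and rose by 1.10 ± 0.0969 (adjusted p = 7.07e-09). In Molm-14 cells it had 0.06 ± 0.0647. Of 8 genes of 3′ end processing, 6 fell in Molm-14 cells and 7 in HL-60 cells. SLBP fell by 0.32 in Molm-14 cells (SE 0.0358, adjusted p = 7.54e-07), with 94.0 and 95.6 CPM at 100 pM against 119 and 118 CPM, and had 0.05 ± 0.0349 in HL-60 cells. LSM11, a subunit of the U7 particle that cuts the transcript, fell by 0.29 in Molm-14 cells and by 0.76 in HL-60 cells (adjusted p = 6.79e-10). Of 7 genes of histone mRNA decay, 3 fell in Molm-14 cells and 6 in HL-60 cells, among them ERI1, the exonuclease that trims the stem-loop, by 0.30 and 0.59.

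DNA synthesis genes went down in Molm-14 cells and in both directions in HL-60 cells. The shares of all genes called higher and lower were again 22.9% and 21.9% at 100 pM and 35.7% and 37.8% at 500 pM. All 19 fell in Molm-14 cells at 100 pM, with a median of -0.55, whereas 7 rose and 9 fell in HL-60 cells at 500 pM, with a median of -0.08, and at 112.7 pM 11 rose and 0 fell, against 24.2% and 27.4% of all genes. TK1, which makes thymidine monophosphate, had 157 and 156 CPM in HL-60 cells at 500 pM, against 76.7 and 76.5 CPM in controls (1.03 ± 0.0404, adjusted p = 7.2e-14). It had 78.2 and 79.5 CPM in Molm-14 cells at 100 pM, against 115 and 120 CPM in controls, and fell by 0.57 (adjusted p = 2.27e-09). The difference between the lines passed the test for 18 of the 19 genes, all toward HL-60, against 25.1% of all genes. Of 14 replication-coupled histone chaperones, 13 fell in Molm-14 cells, and in HL-60 cells 3 rose and 9 fell. ASF1B, which hands new H3 and H4 to the replication fork, fell by 0.47 in Molm-14 cells and rose by 0.85 ± 0.0427 in HL-60 cells (adjusted p = 2.19e-12). Of 12 histone genes outside the replication-dependent set, 6 fell and 1 rose in Molm-14 cells and 7 fell and 3 rose in HL-60 cells. H1-10, a linker histone with a polyadenylated mRNA, had 61.9 and 60.5 CPM in HL-60 cells at 500 pM, against 133 and 138 CPM in controls, and fell by 1.15 (adjusted p = 6.13e-14), in contrast to the rise of the replication-dependent H1 sum.

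Of 14 other RNAs without a poly(A) tail, 8 were tested among genes of all types, and in HL-60 cells 6 were higher and 0 lower at 500 pM, with a median of 1.15, against 32.8% and 32.7% of all genes in that fit. SNORD3A was not called, with 2.98 and 1.81 CPM at 500 pM against 3.44 and 2.11 CPM in controls (-0.24 ± 0.267, adjusted p = 0.448), and neither was RNU4-2. Their summed level in HL-60 cells was 186 and 108 CPM in controls, 232 and 190 CPM at 112.7 pM and 324 and 406 CPM at 500 pM. RN7SK rose by 1.83 ± 0.144 (adjusted p = 4.5e-09) and RN7SL1 by 1.28 ± 0.181 (adjusted p = 7.33e-06). In Molm-14 cells 0 of the 8 were called at 100 pM, against 18.3% of all genes higher and 19.1% lower, with a summed level of 80.8 and 80.7 CPM against 102 and 74.1 CPM in controls. RNU11 and VTRNA1-1 were at 0 in all 12 libraries. The part of these RNAs in the HL-60 histone values was not tested. Markers of other cell types summed to 8.24 and 9.0 CPM in HL-60 cells at 500 pM, against 2.95 and 3.0 CPM in controls, with 3 of the 3 tested higher (35.7% of all genes were) and HBA1 at 0 in all libraries. In Molm-14 cells they summed to 1.85 and 1.90 CPM at 100 pM, against 1.74 and 1.38 CPM in controls. The part of these markers in the results was not tested.

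**Figure D5:**
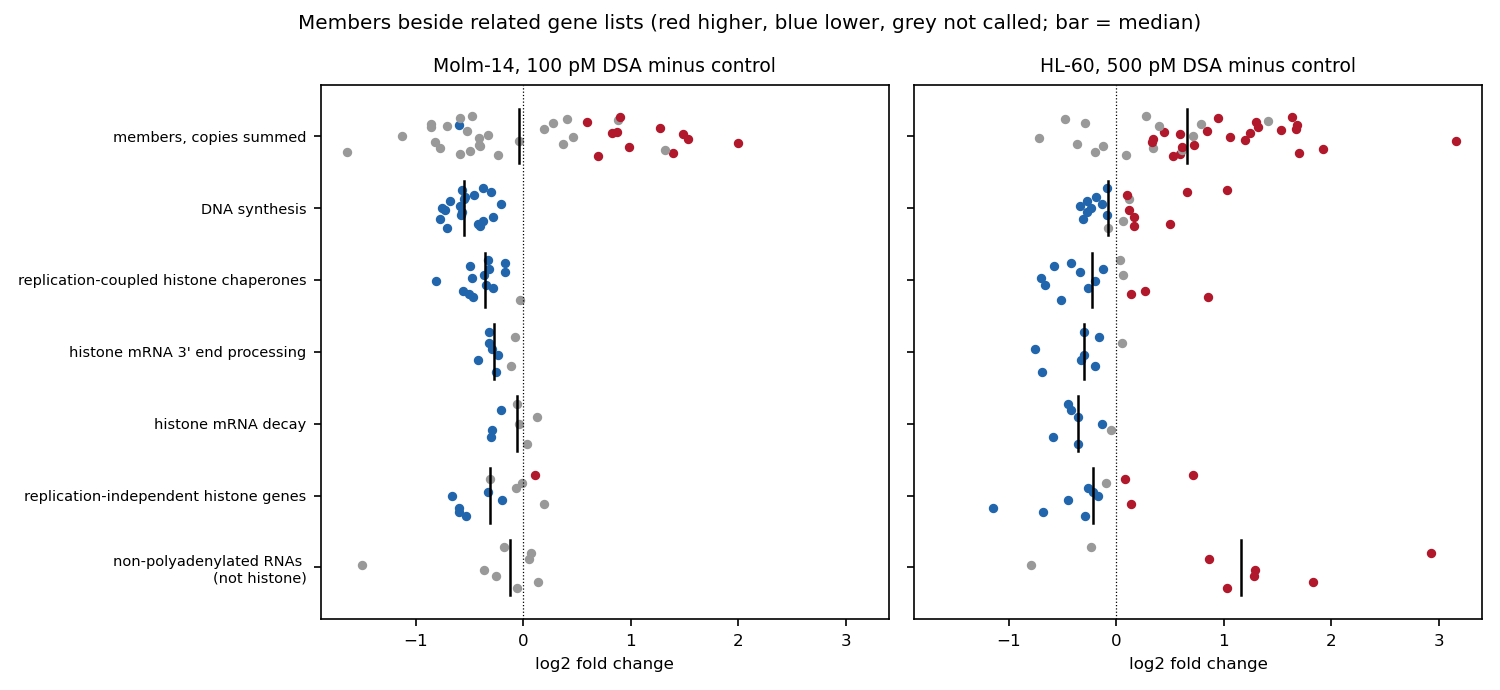
Log2 fold change (horizontal axis) of the tested members, with copies summed, beside 6 related gene lists, at 100 pM minus control in Molm-14 cells on the left and 500 pM minus control in HL-60 cells on the right; each point is 1 gene with an SE under 1, red was called higher, blue lower and grey not called, and the bar is the median of the points drawn. All 19 DNA synthesis genes are blue in Molm-14 cells, and 6 of the 8 non-polyadenylated RNAs are red in HL-60 cells and none in Molm-14 cells.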

How the data were processed

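RNA of Molm-14 and HL-60 cells was sequenced in 12 libraries. Per the study's methods the authors aligned reads to hg38 with STAR (2.7) and quantified genes on GENCODE release 31 with RSEM (1.31), which apportions reads that match several copies. The submitters' processing notes also name Trim Galore (0.60). The deposited files hold expected counts per gene and transcript, TPM per gene and RSEM's lengths. The lengths given above are annotated transcript lengths, not effective lengths, averaged over transcript shares where a gene has several. Library selection and strand are not given in the sources used here.

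Expected counts were rounded and summed over library totals of 21177424 to 63927449. Of 19870 protein-coding genes of annotation levels 1 and 2, 13424 were kept by filterByExpr and fitted over all 6 groups with edgeR (4.0.16, R 4.3.3), TMM scaling and quasi-likelihood tests, and p-values were adjusted by the Benjamini-Hochberg method. A standard error is the log2 fold change over the root of its F statistic. Summed copies and class sums were tested in tables in which the sums replaced their members, and the non-polyadenylated RNAs in a fit of all gene types. TPM gave levels between genes. The fit was also run on simulated counts with far fewer changed genes than were called here. That run cannot judge the scaling used, and no conclusion is drawn from it. DESeq2 (1.42.0), limma-voom (limma 3.58.1), other scalings, filters, thinning, a replicate block and leaving out each library were alternatives. Figures used Python (3.11.15).

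Values in the control and higher-dose libraries are given for members chosen by a rule, some of them only within sums of copies. Lower-dose values are given for some of them. The rule took the 3 members of each class with the highest mean TPM and the 6 listed members described to make polyadenylated mRNA. It also took the 6 called members with the largest increases and decreases at each higher dose (mean count 50 or more). From other lists up to 4 genes each with the smallest p were eligible. Other members, H1-3, H2AC7, H2AC8, H2AC12, H2AC15, H2BC6, H2BC7, H2BC11, H2BC15 and H3C12 among them, were named after their values were seen. Members and lists were chosen with earlier results of these data known. Replicate numbers were not taken as pairs, as correlations of same-numbered deviations lay between -0.072 and 0.082.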

Additional observations from a re-analysis of the deposited data

Results flagged for a closer look

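The change at 500 pM in HL-60 cells differed from the change at 100 pM in Molm-14 cells, by a test of the difference itself, for 15 members or sums. Of all genes, 25.1% were called higher and 30.3% lower in this test, beside 21.7% and 6.52% of the tested members. The differences are given as HL-60 minus Molm-14 on the log2 scale, and line, dose, medium and serum cannot be told apart in them. Toward HL-60, the H3 sum differed by 1.55 and the H4 sum by 0.76. The H3C13, H3C14 and H3C15 sum differed by 2.28 and the H4C14 and H4C15 sum by 0.71. Among single members, the difference was 2.19 for H2BC7, 1.84 for H2BC17, 1.65 for H3C2, 1.54 for H4C5, 1.25 for H2BC11, 0.92 for H2BC18 and 0.82 for H1-4. Toward Molm-14, it was -1.67 for H2AC6, -1.20 for the H2BC12 and H2BC12L sum, -0.44 for the H2A sum and -0.37 for the H2AC18 and H2AC19 sum. H2BC17 and H3C2 were called at the higher dose in neither line alone. In Molm-14 cells H2BC17 had 7 and 5 counts at 100 pM against 13 and 12 in controls, and H3C2 22 and 11 against 33 and 23. The differences of H2AC6, of the other 3 sums of copies and of the 3 class sums were called under every alternative and without any 1 library. The others were not. The H2AC18 and H2AC19 difference was not called with RLE factors (adjusted p = 0.0634), with library totals alone (-0.22, adjusted p = 0.19), by DESeq2 (adjusted p = 0.206), in thinned libraries (adjusted p = 0.0809) or in 5 of 12 fits that left out 1 library (0.0666 to 0.0828). The H1-4 difference was not called by DESeq2 (adjusted p = 0.117), with the replicate block (0.0504), in thinned libraries (0.0636) or in 5 of those 12 fits (0.0621 to 0.242). DESeq2 did not call H2BC11, H2BC17 or H3C2 either, nor was H3C2 called in thinned libraries. Of the 12 fits, the difference was not called in 6 for H2BC11 (adjusted p up to 0.456), 6 for H2BC17 (up to 0.178), 4 for H2BC7 (up to 0.126), 4 for H3C2 (up to 0.101), 3 for H2BC18 (up to 0.127) and 2 for H4C5 (up to 0.0835).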

How the results depend on the processing

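In Molm-14 cells at 100 pM against controls, members called higher went to 7 with a fold change over 2 required, and members called lower to 0 by DESeq2, by limma-voom and with that fold, and to 1 with only the libraries compared or with copies summed. At 11.1 pM, 1 member was higher and 1 lower with no filter, and 1 lower with only the libraries compared. Between 100 pM and 11.1 pM, 1 member was lower by limma-voom, with no filter, with only the libraries compared and in thinned libraries. In HL-60 cells at 500 pM, 15 were higher with a mean count of 50 or more. That filter left members below the mean untested, and 4186 of the 11289 genes it kept were higher. With copies summed, 13 units were called at that mean. A fold over 2 also left 15 members higher. At 112.7 pM, 5 were higher with a fold over 2 and 1 lower with no filter. Between 500 pM and 112.7 pM, 3 were higher by DESeq2 and 2 with a fold over 2, and 0 lower by DESeq2 or at a mean of 50 or more. In the difference between the lines, 6 were higher by DESeq2 and 5 at a mean of 50 or more. Between controls, 0 were lower at a mean of 50 or more and 4 in thinned libraries. The stricter count filter tests fewer genes, and for the other changes the cause was not tested.

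Leaving out 1 library gave 8 to 13 members higher and 0 to 3 lower at 100 pM in Molm-14 cells, 0 to 1 in each direction at 11.1 pM, and 8 to 15 higher and 0 to 1 lower between these doses. It gave 16 to 24 higher and 0 to 1 lower at 500 pM in HL-60 cells, 12 to 18 higher and 0 lower at 112.7 pM, and 6 to 9 higher and 0 to 2 lower between these doses. The difference between the lines gave 4 to 11 and 3 to 4, and the controls 19 to 21 and 7 to 10. Copies summed gave 9 to 13 calls in Molm-14 and 13 to 21 in HL-60 cells, and class sums 2 to 3 and 5.

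H2AC18, taken alone, reversed its direction in HL-60 cells, to 3.81 at 500 pM by limma-voom, and without HL-60 control replicate 1 to 8.85 at 500 pM and 8.54 at 112.7 pM, where its remaining control had 0 counts. Over the libraries left out in turn, its lowest values were -1.44 at 500 pM and -3.64 at 112.7 pM. With the replicate number as a block, 12 members were higher and 2 lower at 100 pM, 23 were higher and 0 lower at 500 pM, and the difference between the lines was called for 9 and 3. The block ended 4 calls of single members or sums, among them H2AC6 at 500 pM (adjusted p = 0.0542). Leaving out H2AC18 and H2AC19, an alternative chosen after seeing the data, changed no call of the other named members and sums, while counts over all genes moved slightly, to 3077 from 3073 higher at 100 pM. Low counts limit the single members, since 24 of 70 were not tested. Calls over all genes also moved when 1 library was left out, so the counts of members in those fits are not read as a result about the members.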
